A study of Mus musculus with 24 samples.

Results

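A set of 10 genes that brake or gate the cell cycle was followed in mouse liver with and without BMAL1 in hepatocytes. The members were chosen by name: the CDK inhibitor genes Cdkn1a, Cdkn1b and Cdkn2c, the kinase gene Wee1, the cyclin genes Ccnd1 and Ccng2, the stress genes Gadd45a, Gadd45b and Gadd45g, and Mdm2. These are 10 of the 35304 genes in the deposited count table, and all 10 were among the 17275 that passed a filter on low counts and were tested. HepKO animals carried Alb::Cre_+/0 with Bmal1_fl/fl, and HepWT animals carried Alb::Cre_0/0 with the same floxed alleles, Bmal1_fl/fl. The Cre is driven by the albumin promoter, which is active in hepatocytes, so other liver cells keep Bmal1. The mice, of the C57BL/6 strain, were 8 to 12 weeks old and had food at night only. Livers came from zeitgeber times 2, 6, 10, 14, 18 and 22, in hours from lights on and written ZT. Total RNA was sequenced after removal of ribosomal RNA, with 2 libraries for each genotype and time and 24 in all. The labels do not say whether the libraries of a group came from separate animals, so p-values measure the spread between these libraries, which may be technical.

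Cyclin-dependent kinases (CDKs) drive the cell cycle when bound to cyclins. CDK inhibitors bind and block them, WEE1 holds cells back from mitosis by phosphorylating CDK1, and the GADD45 proteins are small stress-induced proteins that bind p21, CDK1 and MAP kinase kinase kinases. Most hepatocytes of an adult liver rest, and several of these genes are known there as outputs of the circadian clock: Wee1 is a textbook target of CLOCK and BMAL1, and Cdkn1a is known to be repressed by the clock factor REV-ERBα. Cdkn1a, Mdm2 and Gadd45a are also classical targets of p53.

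The libraries held 12997689 to 30677807 counts. The 5 with the fewest, 12997689 to 16910415 counts, were the replicate 2 libraries of HepKO at ZT6, ZT10, ZT14, ZT18 and ZT22, and the other 19 held 23583035 to 30677807. Arntl, the gene for BMAL1, had 10.3 to 17.7 CPM in the HepKO libraries and 1.27 to 46.0 CPM in the HepWT libraries (CPM, counts relative to the library total, scaled by TMM factors). Its mean difference did not pass the test (log2 difference 0.04, adjusted p = 0.705 in edgeR's quasi-likelihood test with Benjamini-Hochberg adjustment), whereas the interaction of genotype and time did (adjusted p = 1.3e-07). Counts over the whole gene do not separate deleted from intact transcripts. The hepatocyte markers Alb, Ttr, Apoa1, Serpina1a, Cyp2e1, Cps1, Pck1 and Hnf4a were all present in the tested table, and of these 8 only Alb changed, with a mean of 25010 CPM in HepKO and 63920 CPM in HepWT. The summed hepatocyte markers ran from 40630 to 59040 CPM in HepKO and from 80340 to 105700 CPM in HepWT. These sums include Alb: their medians were 48890 CPM in HepKO and 87800 CPM in HepWT, beside the Alb means above. The other 7 markers did not pass, and the median log2 difference of the 8 was -0.08, against -0.01 over all tested genes. All 10 markers of Kupffer cells and macrophages were lower in HepKO, with sums of 222 to 465 CPM in HepKO and 285 to 518 CPM in HepWT, but 3 of the 10 were lower against HepWT replicate 1 alone and 5 with a replicate block in HepWT only. Of the other marker lists, 6 of 8 endothelial and 3 of 8 stellate cell and fibroblast markers were lower in HepKO. So was 1 of 6 T and NK cell markers. Higher in HepKO were 2 of 5 cholangiocyte, 1 of 8 stellate and 1 of 5 B and plasma cell markers. None of 3 neutrophil or 5 erythroid markers passed. Over all tested genes, 13.3% were lower and 13.2% higher. With the replicate block in HepWT only, 4 endothelial, 2 stellate and 1 erythroid markers were lower. No stellate or B and plasma cell marker was higher there, and the T and NK cell and cholangiocyte counts did not change. In bulk liver, fewer cells of a type and less RNA per cell cannot be told apart, and the part of these markers in the results below was not tested.

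The start regions of 4 windows are shown because they belong to the 2 members that passed the test as higher in HepKO, Cdkn1a and Ccng2, and to Gadd45g, a member with a clock-type E-box. Each runs from 250 bases before to 50 bases after a gene start, 5′ to 3′, from RefSeq on GRCm38.p6. Such windows were found for 8 of the 10 members. None was found for Wee1 or Ccnd1, so these 2 were not searched for motifs. Capitals mark matches to the motifs searched on both strands: CACGTG (the E-box), AACGTG (an E-box variant), AGGTCA (the half-site bound by REV-ERB and ROR factors), TTANGTAA (the D-box) and a paired p53 half-site core (CATG, 6 bases of any kind and CATG, added after the windows were read).
Cdkn1a, upstream start (chr17:29090729-29091028, plus strand): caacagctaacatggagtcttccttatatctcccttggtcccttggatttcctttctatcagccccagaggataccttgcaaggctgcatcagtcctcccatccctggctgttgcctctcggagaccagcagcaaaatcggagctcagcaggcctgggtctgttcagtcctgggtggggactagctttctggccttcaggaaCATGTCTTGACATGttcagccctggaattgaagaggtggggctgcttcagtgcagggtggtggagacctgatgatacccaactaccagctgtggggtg
Cdkn1a, downstream start (chr17:29093519-29093818, plus strand): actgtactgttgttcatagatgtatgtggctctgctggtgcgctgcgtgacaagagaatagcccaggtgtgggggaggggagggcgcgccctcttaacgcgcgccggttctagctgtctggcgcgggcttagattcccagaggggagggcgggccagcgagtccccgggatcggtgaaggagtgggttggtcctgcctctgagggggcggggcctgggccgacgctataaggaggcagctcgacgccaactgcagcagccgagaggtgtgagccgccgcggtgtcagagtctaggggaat
Ccng2 (chr5:93267323-93267622, plus strand): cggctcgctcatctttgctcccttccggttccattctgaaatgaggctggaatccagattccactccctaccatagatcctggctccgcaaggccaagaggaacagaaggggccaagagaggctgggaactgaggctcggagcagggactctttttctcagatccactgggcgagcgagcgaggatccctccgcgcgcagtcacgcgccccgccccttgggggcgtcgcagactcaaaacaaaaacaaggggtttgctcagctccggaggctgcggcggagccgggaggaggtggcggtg
Gadd45g (chr13:51846425-51846724, plus strand): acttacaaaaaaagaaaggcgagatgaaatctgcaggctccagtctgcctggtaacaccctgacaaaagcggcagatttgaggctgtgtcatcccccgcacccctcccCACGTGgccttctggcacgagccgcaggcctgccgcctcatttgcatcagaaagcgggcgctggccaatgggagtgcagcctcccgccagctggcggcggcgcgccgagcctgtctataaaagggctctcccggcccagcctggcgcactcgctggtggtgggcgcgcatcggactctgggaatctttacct
The upstream Cdkn1a window held 1 match to the paired p53 core, at position -48 from the start, and 0.712% of all 32851 windows hold that motif. No searched motif was present in the downstream Cdkn1a window or in the Ccng2 window. The Gadd45g window held CACGTG at position -142, as 7.15% of all windows do. CACGTG also stood at position -185 of Gadd45b and position 34 of the downstream Cdkn2c start, and the same Cdkn2c window held AGGTCA on the reverse strand, a motif in 16.3% of all windows. AACGTG and TTANGTAA, found in 4.68% and 2.32% of all windows, were in none of the 8 members' windows. A match describes letters in a window and no binding was measured.

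Averaged over the 6 times, Cdkn1a and Ccng2 were higher in HepKO and Gadd45a, Ccnd1, Cdkn2c and Wee1 were lower, while Cdkn1b, Gadd45b, Gadd45g and Mdm2 did not pass the test. Thus 2 members rose and 4 fell, where 13.2% of all tested genes rose and 13.3% fell (26.5% in either direction). The median of the members' absolute log2 differences was 0.56, against 0.14 over all tested genes, and the median of the signed differences was -0.14 for the members and -0.01 for all genes. The members were chosen with earlier results of these data known, so the shares and medians here are a description and not a test of the set. At single times, 1 member was higher in HepKO at ZT2 (0.944% of all tested genes) and 3 at ZT6 (2.55%), with none lower. At ZT10, 2 were higher (3.73%) and 2 lower (3.98%), and at ZT14 again 2 were higher (4.6%) and 2 lower (3.04%). At ZT18, 1 was higher (2.08%), and at ZT22 no member passed, where 0.839% of all genes were higher and 0.509% lower (1.35% in either direction). Over the day, the genotype difference of Cdkn1a, Wee1 and Ccng2 varied with time, 3 of 10 members where 1.12% of all tested genes did so. A 24 h rhythm passed the test for 2 members in HepKO (14.3% of all tested genes) and for 4 in HepWT (30.3%), with 2 in both (10.4%), and the rhythm differed between genotypes for 2 (1.5%). Without the 5 libraries of low depth, 3 members kept a mean difference, Cdkn1a, Ccng2 and Gadd45a, 1 kept an interaction and none kept a rhythm in HepKO.

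**Figure D1:**
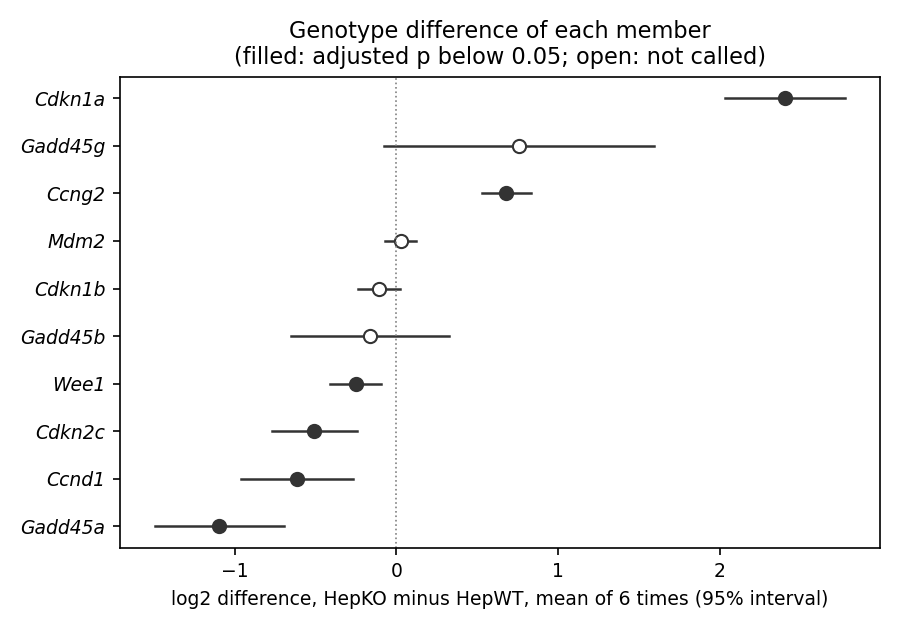
Log2 difference of HepKO minus HepWT averaged over the 6 times for each member, with its 95% interval. Filled points passed the test: Cdkn1a and Ccng2 lie to the higher side, and Gadd45a, Ccnd1, Cdkn2c and Wee1 to the lower side.

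Cdkn1a encodes p21, the CDK inhibitor best known as the arrest signal downstream of p53 (ENSMUSG00000023067, chr17:29090976-29100727, plus strand, GRCm38). In HepKO its 2 libraries had 7.83 and 7.69 CPM at ZT2, 6.49 and 7.12 at ZT6, 22.2 and 14.2 at ZT10, 24.01 and 21.8 at ZT14, 10.7 and 14.8 at ZT18, and 13.8 and 15.5 at ZT22. In HepWT they had 2.35 and 5.11 CPM at ZT2, 1.57 and 1.72 at ZT6, 0.616 and 0.466 at ZT10, 1.07 and 1.01 at ZT14, 2.11 and 6.92 at ZT18, and 13.99 and 9.16 at ZT22. Both HepKO libraries stood above both HepWT libraries at 5 times, and the genotypes overlapped at ZT22, where HepWT reached its daily high. Here and for the members below, such a separation of 2 libraries from 2 is a description and not a test. Its share over all tested genes was not computed. The mean was 13.9 ± 6.21 CPM in HepKO and 3.84 ± 4.21 CPM in HepWT (SD, n = 12 each, which includes the change over the day). The fitted rise was 5.30-fold (log2 2.41 ± 0.18 SE, 95% interval 2.04 to 2.78, adjusted p = 2.05e-08), and it ranged from 2.31 to 2.59 on the log2 scale when each library was left out in turn.

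The excess of Cdkn1a in HepKO was concentrated in the hours when HepWT was at its lowest. At ZT10 it was 33.7-fold higher in HepKO (log2 5.08 ± 0.50 SE, adjusted p = 4.52e-06), at a time when 7.71% of all tested genes differed between genotypes. At ZT14 it was 21.9-fold higher (log2 4.45 ± 0.46 SE, adjusted p = 7.62e-06, with 7.64% of all tested genes differing). The log2 difference was 2.04 at ZT6 (adjusted p = 0.0136, 4.96% of all genes) and 1.48 at ZT18 (adjusted p = 0.0421, 3.79% of all genes). At ZT22 it was 0.33 (adjusted p = 0.802) and at ZT2 it was 1.06 (adjusted p = 0.224), neither of which passed. The ZT2 value ranged from 0.61 without HepWT ZT2 replicate 1 to 1.72 without HepWT ZT2 replicate 2. Against HepWT replicate 1 alone it was 1.71, in a fit where the HepWT groups hold no replicates. The interaction of genotype and time passed for Cdkn1a (adjusted p = 0.000982, or 0.0577 without the 5 libraries of low depth). The ZT6 call was lost when any of the 4 libraries of that time was left out (log2 1.964 to 2.104, adjusted p from 0.0622 to 0.0995). The ZT18 call was lost when HepKO replicate 1 or 2 of ZT2, ZT6, ZT18 or ZT22, or HepWT ZT6 replicate 1, ZT10 replicate 1 or 2 or ZT18 replicate 1 was left out, with log2 values of 0.87 to 1.70 and adjusted p from 0.0503 to 0.278, and the log2 difference was 2.58 without HepWT ZT18 replicate 2 (adjusted p = 0.00263).

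Cdkn1a was rhythmic in both genotypes, with different timing. In HepKO the fitted 24 h wave peaked at ZT14.9 with an amplitude (log2 units from the mean to the peak) of 0.75 ± 0.19 (SE, adjusted p = 0.0236), which is 2.81-fold from trough to peak. In HepWT it peaked at ZT22.1 with an amplitude of 2.03 ± 0.22 (adjusted p = 1.60e-06), or 16.7-fold from trough to peak. The rhythms differed (adjusted p = 9.07e-05), and the HepKO peak came 7.27 h before that of HepWT. The peak times stayed within ZT14.3 to ZT15.7 in HepKO and ZT21.8 to ZT22.5 in HepWT when single libraries were left out. The HepKO rhythm itself was lost without replicate 1 or 2 of ZT2, ZT6 or ZT14 (amplitude 0.67 to 0.74, adjusted p from 0.0532 to 0.0719) and without the 5 libraries of low depth (adjusted p = 0.177).

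**Figure D2:**
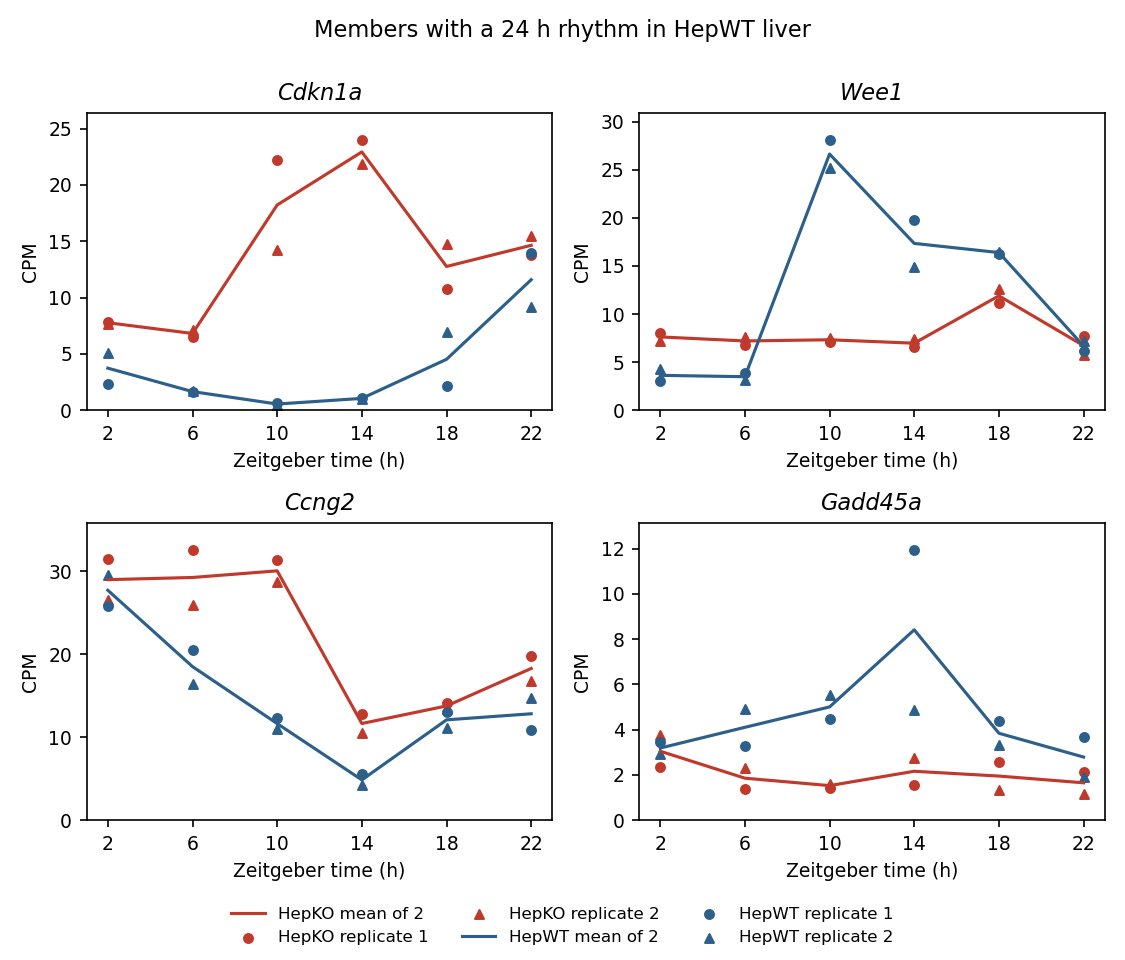
CPM by zeitgeber time (hours) for Cdkn1a, Wee1, Ccng2 and Gadd45a, with HepKO in red, HepWT in blue, circles for replicate 1, triangles for replicate 2 and lines through the mean of both. Cdkn1a stayed between 6.49 and 24.01 CPM in HepKO and fell as low as 0.466 CPM in HepWT, whereas Wee1 stayed between 5.73 and 12.6 CPM in HepKO and spanned 2.98 to 28.1 CPM in HepWT.

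Wee1, whose kinase restrains CDK1 before mitosis (ENSMUSG00000031016, chr7:110122046-110143286, plus strand, GRCm38), varied less over the day in HepKO. In HepKO it had 8.07 and 7.17 CPM at ZT2, 6.82 and 7.57 at ZT6, 7.12 and 7.52 at ZT10, 6.53 and 7.40 at ZT14, 11.2 and 12.6 at ZT18, and 7.68 and 5.73 at ZT22. In HepWT it had 2.98 and 4.26 CPM at ZT2, 3.83 and 3.13 at ZT6, 28.1 and 25.2 at ZT10, 19.8 and 14.9 at ZT14, 16.3 and 16.5 at ZT18, and 6.12 and 7.22 at ZT22. The HepKO libraries stood above the HepWT libraries at ZT2 and ZT6, below them at ZT10, ZT14 and ZT18, and overlapped them at ZT22. The highest library was 2.20 times the lowest in HepKO and 9.44 times the lowest in HepWT. Wee1 was higher in HepKO at ZT2 (log2 1.07 ± 0.19 SE, adjusted p = 0.00517, 1.86% of all genes) and at ZT6 (log2 1.04, adjusted p = 0.0052). It was 3.64-fold lower in HepKO at ZT10 (log2 -1.87 ± 0.18 SE, adjusted p = 3.72e-06) and 2.50-fold lower at ZT14 (log2 -1.32, adjusted p = 0.00012). At ZT18 the log2 difference was -0.47 (adjusted p = 0.181) and at ZT22 it was 0.03 (adjusted p = 0.973).

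These opposite differences partly cancelled in the mean. Wee1 averaged 7.95 ± 1.96 CPM in HepKO and 12.4 ± 8.96 CPM in HepWT (SD, n = 12 each), a log2 difference of -0.25 ± 0.07 SE (95% interval -0.41 to -0.09, adjusted p = 0.0182), whereas the interaction with time had an adjusted p of 6.37e-06. The 24 h wave passed in HepWT, with an amplitude of 1.49 ± 0.19 and a peak at ZT13.8 (adjusted p = 1.62e-05, 7.88-fold from trough to peak), and did not pass in HepKO, where the amplitude was 0.23 ± 0.18 (adjusted p = 0.639). The difference between the rhythms passed (adjusted p = 0.012), with an amplitude in HepKO minus HepWT of -1.26. It missed the threshold with HepWT replicate 2 alone (-1.10, adjusted p = 0.132) and without the 5 libraries of low depth (-1.24, adjusted p = 0.0931). The mean difference was lost without HepWT ZT2 replicate 2 (log2 -0.20, adjusted p = 0.0509), the ZT2 call without HepKO ZT2 replicate 1 (log2 0.99, adjusted p = 0.0695) and the ZT6 call without HepKO ZT6 replicate 2 (log2 0.97, adjusted p = 0.0546). The mean difference also missed the threshold without the 5 libraries of low depth (log2 -0.26, adjusted p = 0.0771) and with time fitted as a 24 h wave (log2 -0.32, adjusted p = 0.21).

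**Figure D3:**
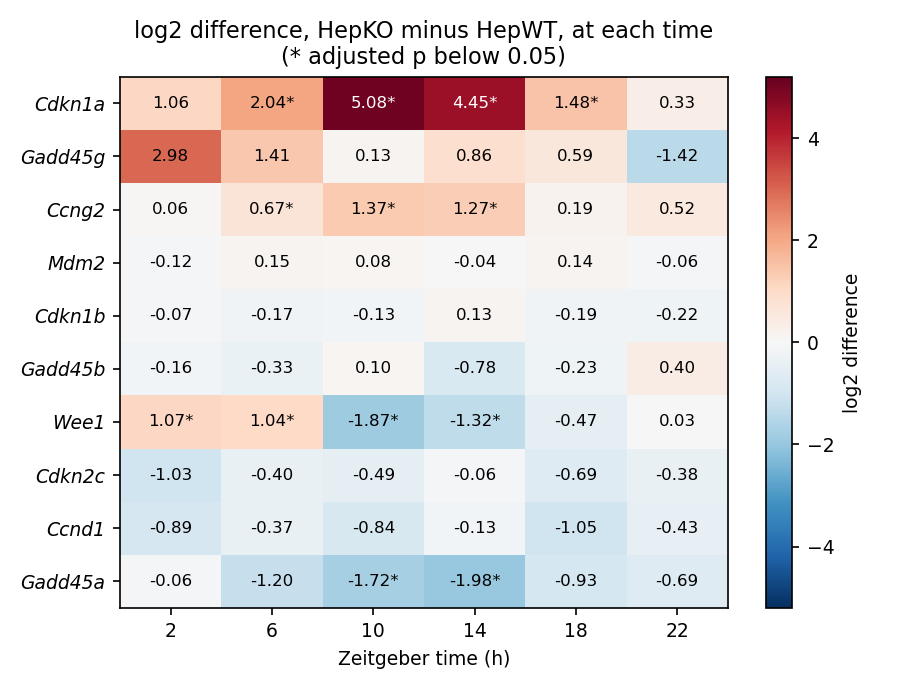
Log2 difference of HepKO minus HepWT for each member (rows) at each zeitgeber time (columns, hours), with an asterisk where the difference passed the test. All 13 calls came from Cdkn1a, Wee1, Ccng2 and Gadd45a, with 9 toward higher levels in HepKO and 4 toward lower levels. None fell at ZT22, where 1.35% of all tested genes differed, the lowest share of any time (the highest was 7.71%, at ZT10).

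Ccng2 encodes cyclin G2, an atypical cyclin known to hold cells in arrest and to be induced by FOXO factors (chr5:93267257-93276231, plus strand, GRCm38). HepKO had 31.4 and 26.6 CPM at ZT2, 32.6 and 25.9 at ZT6, 31.4 and 28.8 at ZT10, 12.8 and 10.49 at ZT14, 14.2 and 13.4 at ZT18, and 19.8 and 16.8 at ZT22. HepWT had 25.9 and 29.6 CPM at ZT2, 20.6 and 16.5 at ZT6, 12.3 and 10.98 at ZT10, 5.52 and 4.21 at ZT14, 13.1 and 11.1 at ZT18, and 10.9 and 14.7 at ZT22. The genotypes overlapped at ZT2 only, and at the other 5 times both HepKO libraries were above both HepWT libraries. Its mean was 22.02 ± 8.29 CPM in HepKO and 14.6 ± 7.55 CPM in HepWT (SD, n = 12 each), a 1.60-fold rise (log2 0.68 ± 0.07 SE, adjusted p = 1.73e-06) that ranged from 0.65 to 0.72 in log2 units as libraries were left out. The rise was 2.58-fold at ZT10 (adjusted p = 7.61e-05) and 2.41-fold at ZT14 (adjusted p = 0.000307), and the log2 difference was 0.67 at ZT6 (adjusted p = 0.0324). It was 0.06 at ZT2, 0.19 at ZT18 and 0.52 at ZT22, none of which passed.

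Ccng2 was rhythmic in both genotypes, and it was the only member besides Cdkn1a that passed the rhythm test in HepKO. The HepKO wave had an amplitude of 0.72 ± 0.13 and peaked at ZT5.22 (adjusted p = 0.00343, 2.70-fold from trough to peak), and the HepWT wave had an amplitude of 0.93 ± 0.13 and peaked at ZT2.47 (adjusted p = 6.50e-05, 3.63-fold). The HepKO peak was 2.75 h later, but the difference between the rhythms did not pass (adjusted p = 0.201), while the interaction over the 6 times did (adjusted p = 0.0226). The interaction call was lost without HepKO ZT2 replicate 2, ZT10 replicate 1 or ZT18 replicate 2, or HepWT ZT2 replicate 2 or ZT10 replicate 1 or 2 (adjusted p from 0.0505 to 0.0839), and against HepWT replicate 1 alone (adjusted p = 0.138). The ZT6 call was lost without any of the 4 libraries of that time (log2 0.47 to 0.82, adjusted p from 0.0556 to 0.277), and the HepKO rhythm without the 5 libraries of low depth (adjusted p = 0.101).

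**Figure D4:**
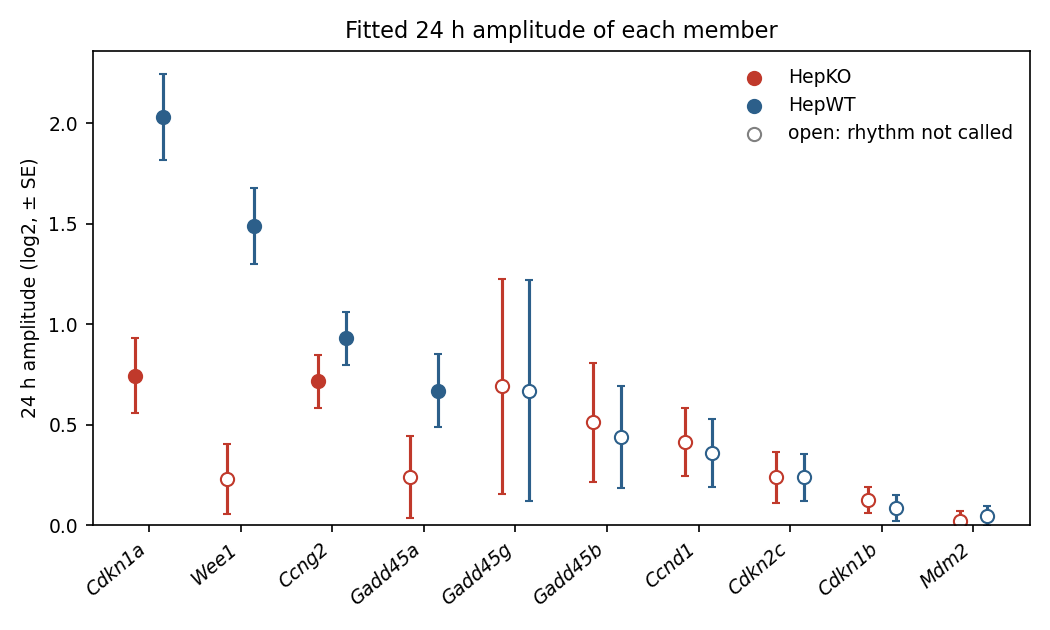
Amplitude of the fitted 24 h wave (log2 units, mean to peak, with SE) for each member in HepKO and HepWT, filled where the rhythm passed the test. Cdkn1a and Wee1 have amplitudes of 2.03 and 1.49 in HepWT, above their values of 0.75 and 0.23 in HepKO, while Ccng2 has 0.72 in HepKO and 0.93 in HepWT.

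Among the GADD45 genes, Gadd45a fell in HepKO while Gadd45b and Gadd45g did not pass the test. Gadd45a, known as a DNA damage and stress response gene (chr6:67035096-67037457, minus strand, GRCm38), had 2.34 and 3.76 CPM at ZT2, 1.39 and 2.32 at ZT6, 1.44 and 1.62 at ZT10, 1.58 and 2.75 at ZT14, 2.59 and 1.32 at ZT18, and 2.15 and 1.16 at ZT22 in HepKO. In HepWT it had 3.47 and 2.91 CPM at ZT2, 3.29 and 4.92 at ZT6, 4.46 and 5.56 at ZT10, 11.9 and 4.88 at ZT14, 4.37 and 3.32 at ZT18, and 3.68 and 1.90 at ZT22. The HepKO libraries were below the HepWT libraries at ZT6, ZT10, ZT14 and ZT18 and overlapped them at ZT2 and ZT22. Its mean was 2.04 ± 0.764 CPM in HepKO and 4.56 ± 2.54 CPM in HepWT (SD, n = 12 each), 2.14-fold lower in HepKO (log2 -1.10 ± 0.19 SE, 95% interval -1.50 to -0.70, adjusted p = 0.00032). The direction and call held when each library was left out, with log2 values from -1.19 to -0.96. By time, Gadd45a was 3.29-fold lower at ZT10 (adjusted p = 0.0329) and 3.96-fold lower at ZT14 (adjusted p = 0.0108).

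Gadd45a lost its calls at single times and its rhythm call when certain libraries were left out. The HepWT rhythm call was lost with HepWT replicate 1 alone (amplitude 0.77) and with HepWT replicate 2 alone (amplitude 0.72). Fits without the 5 libraries of low depth or against HepWT replicate 1 alone lost the ZT10 call (log2 -1.77 and -1.54). Against HepWT replicate 2 alone the ZT14 call was lost (log2 -1.21). The gene had 16 to 115 counts per library in HepKO and 46 to 290 in HepWT. The ZT10 call was lost without any of the 4 libraries of that time (log2 -1.87 to -1.54, adjusted p from 0.083 to 0.241) and with limma-voom (adjusted p = 0.0748). The ZT14 call was lost without HepKO ZT14 replicate 1 (log2 -1.60, adjusted p = 0.128) or HepWT ZT14 replicate 1 (log2 -1.19, adjusted p = 0.195). Its 24 h wave passed in HepWT with an amplitude of 0.67 ± 0.18 and a peak at ZT12.4 (adjusted p = 0.0201), but not without HepWT ZT14 replicate 1 (amplitude 0.42, adjusted p = 0.163) or HepWT ZT22 replicate 2 (amplitude 0.59, adjusted p = 0.0522). In HepKO the amplitude was 0.24 ± 0.20 (adjusted p = 0.691), and the difference between the rhythms did not pass (adjusted p = 0.193). The transcript E230016M11Rik overlaps Gadd45a on the opposite strand and had 13 to 101 counts per library, so reads of the pair cannot be told apart if strand was not used in counting.

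Gadd45b and Gadd45g, the relatives induced by cytokines and stress, had wide intervals. Gadd45b had 0.324, 0.570 and 1.45 CPM in the lowest, median and highest HepKO libraries, against 0.218, 0.757 and 1.76 CPM in HepWT, and overlapped between genotypes at all 6 times. Its log2 difference was -0.17 ± 0.23 SE (95% interval -0.65 to 0.32, adjusted p = 0.658), from 5 to 36 counts per library in HepKO and 6 to 51 in HepWT. Gadd45g replicates lay far apart at several times. HepKO had 34.7 and 3.21 CPM at ZT2, 5.94 and 13.6 at ZT6, 17.9 and 13.5 at ZT10, 9.83 and 29.6 at ZT14, 5.01 and 5.80 at ZT18, and 6.37 and 3.48 at ZT22. HepWT had 1.30 and 3.48 CPM at ZT2, 4.36 and 2.75 at ZT6, 17.3 and 11.6 at ZT10, 2.88 and 18.5 at ZT14, 2.53 and 4.57 at ZT18, and 4.35 and 23.0 at ZT22. The HepKO libraries stood above the HepWT libraries at ZT6 and ZT18 and overlapped them at the other 4 times. The Gadd45g log2 difference was 0.76 ± 0.40 SE (95% interval -0.08 to 1.59, adjusted p = 0.179). It was 1.49 against HepWT replicate 1 alone and 0.46 against HepWT replicate 2 alone, fits in which the HepWT groups hold no replicates.

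Ccnd1 encodes cyclin D1, which starts the G1 phase with CDK4 and CDK6 (chr7:144929931-144939925, minus strand, GRCm38). It was lower in HepKO, with 20.4 and 21.4 CPM at ZT2, 28.8 and 30.3 at ZT6, 35.0 and 29.5 at ZT10, 48.2 and 32.2 at ZT14, 34.7 and 31.4 at ZT18, and 29.5 and 19.4 at ZT22. HepWT had 40.05 and 37.4 CPM at ZT2, 31.5 and 44.6 at ZT6, 55.2 and 60.4 at ZT10, 31.9 and 56.2 at ZT14, 37.1 and 100.2 at ZT18, and 19.8 and 46.9 at ZT22. The HepKO libraries were below the HepWT libraries at ZT2, ZT6, ZT10 and ZT18 and overlapped them at ZT14 and ZT22. The mean was 30.1 ± 7.78 CPM in HepKO and 46.8 ± 20.5 CPM in HepWT (SD, n = 12 each), 1.53-fold lower in HepKO (log2 -0.62 ± 0.16 SE, adjusted p = 0.00939). No single time passed, the lowest being a log2 difference of -1.05 at ZT18 (adjusted p = 0.195), which was -1.60 without HepWT ZT18 replicate 1 (adjusted p = 0.037) and -0.17 without HepWT ZT18 replicate 2, the library with 100.2 CPM (adjusted p = 0.948).

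Cdkn2c encodes p18, an inhibitor of CDK4 and CDK6 (chr4:109660876-109667189, minus strand, GRCm38). HepKO had 3.62 and 3.47 CPM at ZT2, 6.20 and 4.57 at ZT6, 4.36 and 4.80 at ZT10, 4.13 and 5.45 at ZT14, 3.47 and 3.95 at ZT18, and 4.47 and 3.34 at ZT22. HepWT had 5.37 and 9.11 CPM at ZT2, 6.37 and 8.09 at ZT6, 7.18 and 5.62 at ZT10, 4.45 and 5.48 at ZT14, 5.06 and 6.85 at ZT18, and 3.45 and 6.89 at ZT22. As for Ccnd1, the genotypes overlapped at ZT14 and ZT22, and both HepKO libraries were below both HepWT libraries at the other 4 times. The mean was 4.32 ± 0.862 CPM in HepKO and 6.16 ± 1.58 CPM in HepWT (SD, n = 12 each), 1.42-fold lower in HepKO (log2 -0.51 ± 0.12 SE, adjusted p = 0.00556). No single time passed, the lowest being a log2 difference of -1.03 at ZT2 (adjusted p = 0.102), which was -1.35 without HepWT ZT2 replicate 1 (adjusted p = 0.0365) and -0.60 without HepWT ZT2 replicate 2 (adjusted p = 0.759). The ZT2 difference also passed with DESeq2 on all libraries (log2 -1.02, adjusted p = 0.0425). It passed as well without HepWT ZT22 replicate 1 or 2 (log2 -1.03), and was -1.36 against HepWT replicate 2 alone.

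The falls of Ccnd1 and Cdkn2c depended on which HepWT libraries they were set against. In HepWT, replicate 2 was higher than replicate 1 at 5 of 6 times for both genes, with means of 57.6 and 35.9 CPM for Ccnd1 and of 7.01 and 5.31 CPM for Cdkn2c. Against HepWT replicate 1 alone, neither passed (Ccnd1 log2 -0.21, adjusted p = 0.156, and Cdkn2c log2 -0.27, adjusted p = 0.0933), and neither passed without the 5 libraries of low depth (Ccnd1 log2 -0.50, adjusted p = 0.157, and Cdkn2c log2 -0.50, adjusted p = 0.0553). Stellate cell and fibroblast markers summed to a median of 487.6 CPM in HepKO, 504.9 CPM in HepWT replicate 1 and 578.5 CPM in HepWT replicate 2. Proliferation markers summed to a median of 95.7 CPM in HepKO (52.97 to 136 CPM). In HepWT the medians were 68.2 CPM in replicate 1 and 122.7 CPM in replicate 2 (50.9 to 183.7 CPM over both). No HepWT replicate 2 library lay near its median: the sums were 173.9, 171.2 and 183.7 CPM at ZT2, ZT18 and ZT22. At ZT6, ZT10 and ZT14 they were 74.15, 64.91 and 56.73 CPM, beside 68.39, 68.07 and 50.89 CPM in HepWT replicate 1. The part of these differences between HepWT replicates in the falls of Ccnd1 and Cdkn2c was not tested.

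**Figure D5:**
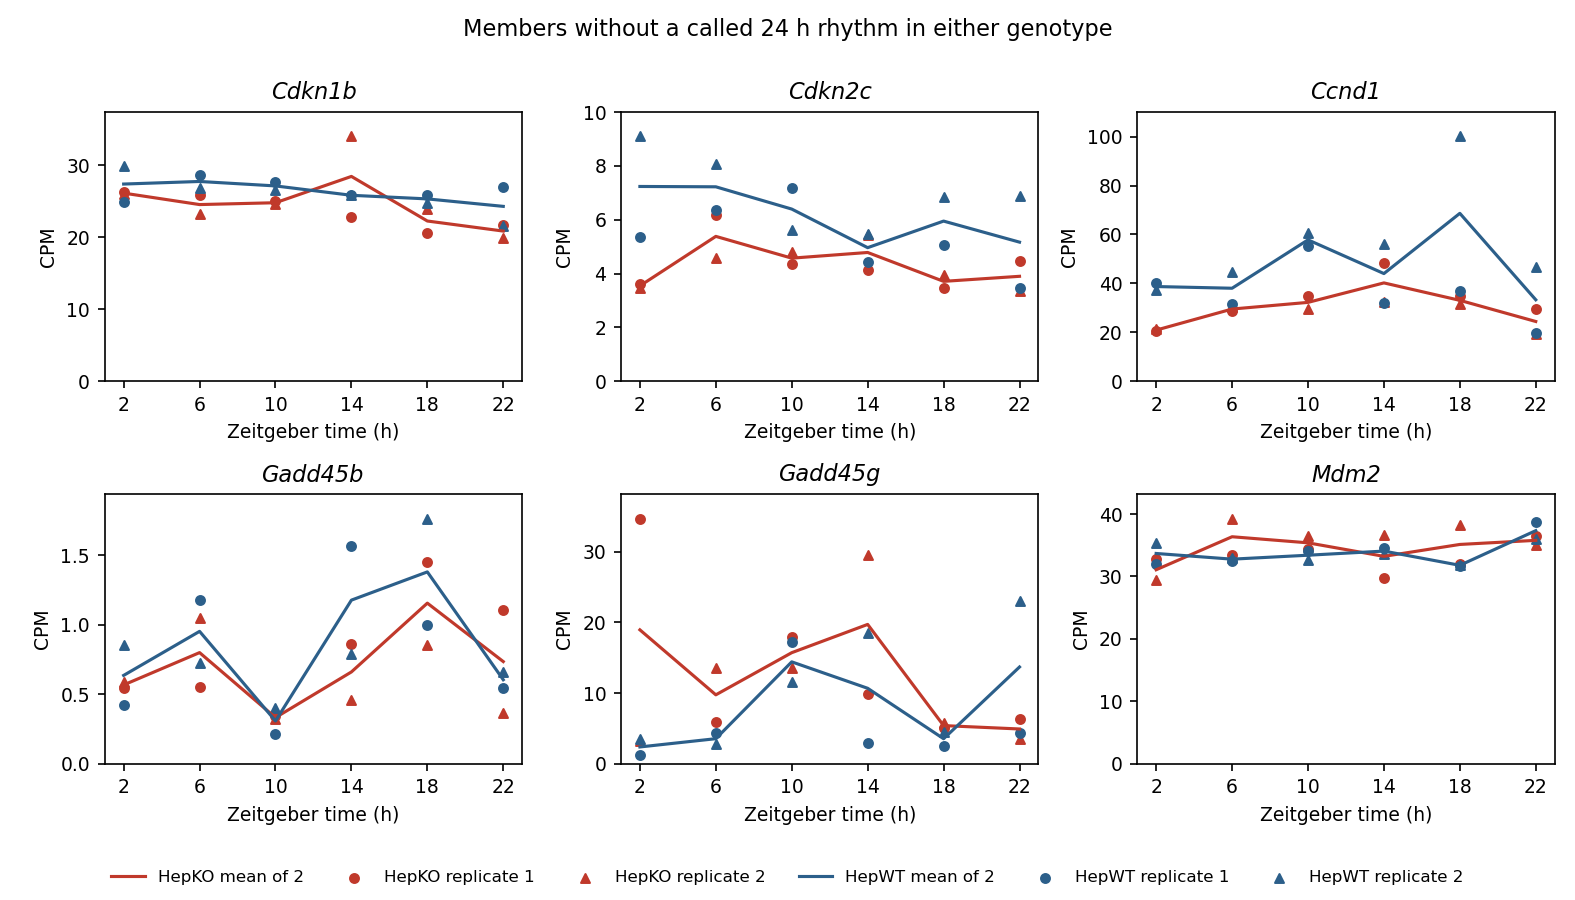
CPM by zeitgeber time (hours) for Cdkn1b, Cdkn2c, Ccnd1, Gadd45b, Gadd45g and Mdm2, with HepKO in red, HepWT in blue, circles for replicate 1, triangles for replicate 2 and lines through the mean of both. Mdm2 and Cdkn1b stayed within 29.4 to 39.3 and 19.96 to 34.1 CPM in HepKO, while Gadd45g ran from 3.21 to 34.7 CPM in HepKO and from 1.30 to 23.0 CPM in HepWT.

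Cdkn1b, the gene for the CDK inhibitor p27, and Mdm2, the gene for the ubiquitin ligase that degrades p53, were the steadiest members. Cdkn1b had 19.96, 24.2 and 34.1 CPM in the lowest, median and highest HepKO libraries, against 21.5, 26.3 and 29.9 CPM in HepWT. The ranges overlapped, and the log2 difference was -0.11 ± 0.06 SE (95% interval -0.24 to 0.02, adjusted p = 0.218), which passed without HepKO ZT14 replicate 2 (log2 -0.16, adjusted p = 0.0261). Mdm2 had 29.4, 34.7 and 39.3 CPM in HepKO, against 31.7, 33.3 and 38.7 CPM in HepWT. Its ranges over the whole day again overlapped, as they did for every member. By time, the HepKO libraries were below the HepWT libraries for Cdkn1b and above them for Mdm2 at ZT6, ZT10 and ZT18. Neither gene passed at any single time. The Mdm2 log2 difference was 0.03 ± 0.04 SE (95% interval -0.07 to 0.12, adjusted p = 0.733), and its rhythm amplitudes were 0.02 in HepKO and 0.05 in HepWT. Mdm2 and Cdkn1a had intervals of the genotype difference that did not overlap, and the part of p53 in either gene was not tested.

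Per kilobase of exon, which allows levels to be compared between genes, the order of the members was not the same in the genotypes. In HepKO, Gadd45g had 10.6 ± 8.80, Mdm2 6.79, Ccnd1 6.39 ± 1.65, Cdkn1b 5.38, Ccng2 4.03, Cdkn1a 3.90, Wee1 2.33, Cdkn2c 1.61, Gadd45a 1.15 and Gadd45b 0.446 CPM per kilobase (mean, SD where given, n = 12). In HepWT, Ccnd1 had 9.93 ± 4.35, Gadd45g 6.86 ± 6.41, Mdm2 6.66, Cdkn1b 5.78, Wee1 3.62, Ccng2 2.68, Gadd45a 2.58, Cdkn2c 2.29, Cdkn1a 1.08 and Gadd45b 0.531 CPM per kilobase. Cdkn1a thus stood next to Ccng2 in HepKO and above only Gadd45b in HepWT. The order is loose: in HepKO all members down to Wee1 lay within 1 SD of Gadd45g, and in HepWT Wee1, Ccng2 and Cdkn2c lay within 1 SD of Gadd45a (1.44).

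Over the means of the 12 groups of genotype and time, the members did not form a block. The lowest Pearson correlation of log2 CPM was that of Cdkn1a with Gadd45a (-0.88) and the highest that of Cdkn2c with Ccnd1 (0.67). Wee1 had a correlation of -0.61 with Ccng2 and of -0.40 with Cdkn1a. The 5 genes most like Wee1 were Ugt2a3 (0.92), Tmem189 (0.90), Gas2l3 (0.90), Per3 (0.89) and Usp2 (0.89), of which Per3 is a core clock gene. Those most like Cdkn1a included Rps2 (0.96), Slc34a2 (0.96), Tecpr2 (0.96) and Slc16a1 (0.95). These points share the same libraries and are a description.

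Genes around the members were read from 7 lists, given as counts and medians, beside 13.2% of all tested genes higher in HepKO and 13.3% lower. Of 13 genes of G2/M control around Wee1, 5 were lower in HepKO and none higher (median log2 -0.75, against -0.01 over all tested genes): Cdk1, Ccna2 and Aurkb with Ccnb2 and Ccnb1, the mitotic cyclins. Ccnb2 averaged 0.628 CPM in HepKO and 1.58 CPM in HepWT (log2 -1.43, adjusted p = 0.000768), and Ccnb1 averaged 0.494 CPM in HepKO and 1.41 CPM in HepWT (log2 -1.24, adjusted p = 0.0164). Both are low, and Ccnb1 did not pass against HepWT replicate 1 alone (log2 -0.46, adjusted p = 0.389). The list count was 2 lower of 12 tested against HepWT replicate 1 alone (median log2 -0.19), 10 lower of 13 against HepWT replicate 2 alone, and 2 lower without the 5 libraries of low depth. Of 13 proliferation markers, 2 were higher and 6 lower (median log2 -0.07), led by Rrm2, a subunit of ribonucleotide reductase, with 2.70 CPM in HepKO and 7.22 CPM in HepWT (log2 -1.34, adjusted p = 2.27e-05), and the spindle checkpoint kinase gene Bub1, with 0.294 CPM in HepKO and 0.762 CPM in HepWT (log2 -1.29, adjusted p = 0.0107, or log2 -0.50 and adjusted p = 0.344 against HepWT replicate 1 alone). Against HepWT replicate 1 alone the split turned to 6 higher and 1 lower (median log2 0.14), and without the 5 libraries of low depth it was 1 higher and 2 lower.

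Of 15 genes of G1/S control around Ccnd1, 6 were higher in HepKO, including the D-type cyclins Ccnd2 and Ccnd3, and 1 was lower (median log2 0.20). Cdk6, a kinase partner of the D-type cyclins, averaged 67.3 CPM in HepKO and 44.9 CPM in HepWT (log2 0.58, adjusted p = 1.35e-05), and Ccne1, the gene for cyclin E1, averaged 0.969 CPM in HepKO and 2.65 CPM in HepWT (log2 -1.22, adjusted p = 0.00296, or log2 -0.56 and adjusted p = 0.119 against HepWT replicate 1 alone). Without the 5 libraries of low depth the G1/S count was 3 higher and 2 lower, and against HepWT replicate 2 alone it was 4 higher and 3 lower. The CDK inhibitor genes outside the members had 2 tested of 4, Cdkn1c and Cdkn2d, and neither passed.

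Of 23 genes for p53 and its targets, 1 was higher, 2 were lower and 20 did not pass (median log2 -0.03), with 26.5% of all tested genes called in either direction. Trp53 itself averaged 9.03 CPM in HepKO and 9.07 CPM in HepWT (log2 0.00). Ei24, a p53-induced gene, averaged 137.7 CPM in HepKO and 111.4 CPM in HepWT (log2 0.30, adjusted p = 1.60e-05), and the death receptor gene Fas averaged 13.6 CPM in HepKO and 16.5 CPM in HepWT (log2 -0.25, adjusted p = 0.0145, or 0.136 against HepWT replicate 1 alone). Of 10 GADD45 partners and MAP kinases, 1 was higher and 4 were lower (median log2 -0.04). With a replicate block in HepWT only, 1 was higher and 2 were lower. Map2k6, a p38 kinase activator, averaged 4.13 CPM in HepKO and 6.38 CPM in HepWT (log2 -0.59, adjusted p = 0.00145), and Mapk9, a JNK gene, averaged 67.6 CPM in HepKO and 59.2 CPM in HepWT (log2 0.19, adjusted p = 0.000431). Of 6 genes for FOXO factors and p27 turnover, 3 were higher and 1 was lower (median log2 0.22), and none was higher against HepWT replicate 1 alone. Foxo3 averaged 54.3 CPM in HepKO and 72.5 CPM in HepWT (log2 -0.41, adjusted p = 3.22e-05), and Btg1, an antiproliferative gene, averaged 59.7 CPM in HepKO and 47.9 CPM in HepWT (log2 0.41, adjusted p = 0.00427, or 0.087 against HepWT replicate 1 alone). No gene of these 7 lists passed the test of a difference between rhythms.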

How the data were processed

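The deposited table holds whole-number read counts for each Ensembl gene, not normalized by the authors. Alignment used STAR 2.4.0i and mm10, per the submitters' processing notes. Counting tool, annotation and strand setting: not given in the sources used here. Members with a gene on the other strand (Cdkn1a, Wee1, Ccnd1 and Gadd45a) are therefore uncertain. Per library, the overlapping genes had 0 to 4 counts for Cdkn1a, 0 to 6 for Wee1, 106 to 329 for Ccnd1 (LTO1) and 13 to 101 for Gadd45a. All 24 columns were used, including 5 of HepKO replicate 2 whose names carry a suffix the labels do not explain. These 5 are the libraries of low depth.

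All models were run in R 4.3.3 with edgeR 4.0.16 (TMM scaling, filterByExpr with minimum count 10 and minimum total 15, quasi-likelihood F test, two-sided, Benjamini-Hochberg adjusted p below 0.05 over all tested genes). A model with 12 groups (12 residual degrees of freedom) gave the mean genotype difference, the difference by time and the interaction. Rhythms came from 24 h cosine and sine terms per genotype (residual degrees of freedom 18). Alternatives were RLE size factors, DESeq2 1.42.0, limma-voom (limma 3.58.1), no filter, a replicate block, 12 h terms, time as a wave, subsets of libraries and leaving out each library. A replicate block in HepWT only was added after the data were seen. Scripts were tested on simulated data.

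Over all tested genes together, the variance between replicates was 8.42 to 57.7 times that of counting alone (chi-square over its degrees of freedom). This ratio was not taken for single genes. It may not hold for members with few counts, such as Gadd45b with 5 to 36 per library in HepKO and 6 to 51 in HepWT. Same-numbered HepKO and HepWT libraries had deviations with correlations of -0.0893 to 0.0526 over the 6 times, so the numbers do not pair them. Gene positions are from GENCODE M21 (GRCm38). The members and gene lists were chosen with earlier results of these data known. Named genes were the 10 members, Arntl, the 2 genes with the largest significant difference in each pathway list, and the 5 genes most like Wee1 and Cdkn1a, with predicted models left out. A gene that this rule names is not reported here. Further list genes are named where a count of at most 5 refers to them, and Ccnd2, Ccnd3 and Trp53 were named after their values were seen.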

Additional observations from a re-analysis of the deposited data

Results flagged for a closer look

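The effect of genotype differed between times of day, or the 24 h rhythm differed between HepKO and HepWT, by a test of the difference itself for 3 members. For Cdkn1a the interaction of genotype and time had an adjusted p of 0.000982 and the difference between rhythms an adjusted p of 9.07e-05. For Wee1 these were 6.37e-06 and 0.012. For Ccng2 the interaction had an adjusted p of 0.0226, and the difference between rhythms did not pass (adjusted p = 0.201). All are from edgeR's quasi-likelihood test over 17275 genes.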

How the results depend on the processing

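No called genotype difference of a member, and no called difference between rhythms, changed sign in any alternative. Over all member values, 87 of 3640 changed sign, all in results that passed in neither fit. The 3640 include adjusted p-values of the interaction and amplitudes within each genotype, which cannot change sign. Without the 5 libraries of low depth, counts dropped by over 1.5 times in every comparison but the rhythm in HepWT: to 2886, against 4572 with all libraries, for the mean difference, 1669 against 4717 for the differences at single times, 43 against 193 for the interaction, 173 against 2471 for the rhythm in HepKO and 66 against 259 for the difference between rhythms. Among members the counts were 3 against 6, 8 against 13, 1 against 3, 0 against 2 and 1 against 2. Fewer libraries were fitted there. Without the filter, edgeR called 9171 differences at single times, 1655 interactions and 1367 rhythm differences, and among members 26 differences at single times, 6 interactions, 4 rhythms in HepKO and 5 rhythm differences. The cause was not tested. DESeq2 called 526 interactions and 574 rhythm differences, and 14 member differences at single times. With HepWT replicate 1 or 2 alone, the rhythm in HepWT was called for 2269 or 2640 genes, against 5239 with both, and the rhythm difference for 165 or 149, with 1 member for replicate 2 alone.

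Leaving out each library gave 171 to 301 rhythm differences (171 without HepKO ZT2 replicate 1), 138 to 239 interactions and 1 to 2 members with a rhythm in HepKO. Members with a mean difference numbered 5 to 7, and calls at single times 9 to 14. With the replicate block the mean difference was called for 4597 genes and the interaction for 199, and the same number of members passed as without it in each comparison. With a block in HepWT only, Ccnd1 (log2 -0.24, adjusted p = 0.277) and Cdkn2c (log2 -0.29, adjusted p = 0.126) lost their calls, the proliferation markers split into 6 higher and 1 lower and the G2/M list had 1 lower.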
